A study of Mus musculus with 8 samples.

Results

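The transcription factors described here are 9 genes that act in myeloid commitment: Cebpa, Cebpb, Cebpd, Cebpe, Spi1, Irf8, Irf4, Gfi1 and Klf4. They were taken by name and not by a filter on their values, though earlier results of these data were known. They were among the 32285 genes counted by single-cell RNA sequencing of bone marrow HSPC (haematopoietic stem and progenitor cells, lineage-negative and c-Kit+). The cells came from 8 wild-type, untreated mice, with 1 library for each mouse. A male and a female mouse were sampled at each of 4 ages: 14 weeks (young), 50 weeks (middle-aged), 78 weeks for the male and 79 weeks for the female (old), and 95 weeks (very old). The labels name no strain. Each age thus rests on 2 mice of different sex. Both libraries at 95 weeks were numbered in a different series from the other 6, and what belongs to that series and what belongs to the age cannot be told apart.

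The 8 libraries held 59465 cell barcodes, of which 59136 with 200 or more detected genes were kept, with 83062003 to 150135029 unique molecular identifiers (UMIs, 1 per captured transcript) per library and a median of 8505 to 14951 UMIs per cell. At most 27 barcodes were shared by any pair of libraries. Cells were clustered without the 9 genes, and clusters were named from fixed marker lists as HSC-like (7714 cells), multipotent progenitor (MPP)-like (6223), granulocyte-monocyte progenitor (GMP)-like (5006), granulocyte progenitor-like (2920), monocyte progenitor-like (6507) and dendritic progenitor-like (557), beside basophil and mast progenitor-like (2034), erythroid-like (11609), megakaryocyte progenitor-like (4798) and macrophage-like cells (237). The names of the myeloid populations were checked against their markers. GMP-like cells held the azurophil granule genes Mpo (5793 counts per 1e6 UMIs, CPM) and Elane (3156 CPM), granulocyte progenitor-like cells held S100a8 (2893 CPM) and Camp (759.8 CPM), and monocyte progenitor-like cells held Ms4a6c (369.8 CPM) and F13a1 (224.3 CPM). Of the 16 granulocyte markers Mmp8 (5.66 CPM), Cd177 (6.41), Syne1 (17.5) and Fcnb (41.7) were low, and the list summed to 6750 to 10610 CPM in young and 1959 to 13880 in older mice. With clusters drawn at resolution 1.6, the marker lists gave the granulocyte name to 366 cells only. A cluster of 2438 cells led by Elane, with Cebpe among its leading genes, was then named GMP-like. The GMP list as a whole did not single out the GMP-like cells: in young mice its 11 genes summed to 22460 to 24940 CPM there, 21440 to 21590 in monocyte and 42650 to 45850 in granulocyte progenitor-like cells. Of the 13 monocyte markers Fn1 (0.953 CPM), Mpeg1 (20.6), Pld4 (23.2), Ctss (36.2) and Rassf4 (44.3) were low. In young mice that list summed to 2456 to 2591 CPM in monocyte and 2923 to 3690 in dendritic progenitor-like cells. The dendritic progenitor-like cells held Cd74 (13270 CPM) and Clec9a (105.9 CPM), genes of conventional dendritic cells, whereas of the plasmacytoid markers Siglech (10 UMIs), Cox6a2 (5 UMIs), Ly6d (3 UMIs) and Pacsin1 (3 UMIs) were near 0 and Bst2 (1160 UMIs), Runx2 (126 UMIs) and Ccr9 (75 UMIs) were present. A further 11531 cells in 5 clusters carried no name.

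Myeloid cells arise from stem cells through progenitors whose choices are set by a small number of DNA-binding proteins acting in combination and by dose. PU.1, the ETS factor encoded by Spi1, is needed for all myeloid lineages, and C/EBPα, encoded by Cebpa, is needed to form GMP. C/EBPε and the zinc finger repressor GFI1 act in granulocyte maturation, C/EBPβ serves granulocyte output under demand, and C/EBPδ is a related family member. IRF8 directs monocyte and dendritic fates and restrains granulocyte output. Its relative IRF4 acts in dendritic and lymphoid cells, and KLF4 acts in monocyte differentiation.

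Promoters of Irf8 and Klf4, which were both highest in dendritic progenitor-like cells, are shown beside that of Cebpa, which was lower there than in granulocyte and monocyte progenitor-like cells. Each is the 250 bases before the gene's start on its own strand, 5′ to 3′, from RefSeq on GRCm38.p6. Windows were held for 6 of the 9 genes, and those of Cebpd, Cebpe and Spi1 were not analysed here.
Irf8, chr8:120736108-120736357, plus strand: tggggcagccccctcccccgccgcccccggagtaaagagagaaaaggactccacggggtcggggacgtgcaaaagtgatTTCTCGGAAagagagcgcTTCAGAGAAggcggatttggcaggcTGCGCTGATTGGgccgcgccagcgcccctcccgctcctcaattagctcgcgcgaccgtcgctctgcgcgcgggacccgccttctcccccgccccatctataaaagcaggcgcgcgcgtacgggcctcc
Klf4, chr4:55532476-55532725, minus strand: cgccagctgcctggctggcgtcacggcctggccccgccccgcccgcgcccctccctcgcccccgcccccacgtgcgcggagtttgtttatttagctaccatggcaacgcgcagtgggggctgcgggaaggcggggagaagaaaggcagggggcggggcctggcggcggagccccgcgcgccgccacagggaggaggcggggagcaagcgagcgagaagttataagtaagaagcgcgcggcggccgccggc
Cebpa, chr7:35119043-35119292, plus strand: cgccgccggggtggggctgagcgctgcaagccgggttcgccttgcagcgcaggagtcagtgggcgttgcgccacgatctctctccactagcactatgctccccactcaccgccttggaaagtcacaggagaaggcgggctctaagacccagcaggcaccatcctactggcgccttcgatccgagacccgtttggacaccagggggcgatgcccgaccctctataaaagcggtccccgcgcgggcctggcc
Both strands were searched for 6 motifs, and capitals mark the matches. The Irf8 window shown held 2 matches of the interferon-gamma activated site TTCNNNGAA, the first starting 171 bases before the start, a motif found in 7.02% of 32851 promoters. It also held a GFI1 motif (2.6% of promoters), on the minus strand 128 bases before the start, overlapping a CCAAT box (33.8% of promoters). A second RefSeq start of Irf8 has its window at chr8:120738389-120738638, which held no match of any of the 6. The ETS motif GAGGAAG (10.6%), the C/EBP motif TTGCNNAAT (2.11%) and the interferon-stimulated response element (2.98%) had no match in the windows of the 6 genes. These matches describe letters in the windows and no binding was measured.

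Levels of the 9 genes were first placed in order over 9 named populations, as UMIs summed per mouse and population and given as CPM after scaling with the trimmed mean of M values (TMM). Cebpa (chr7:35119293-35121928, plus strand) was detected across the immature and granulocyte-monocyte populations. Its mean level over the 8 mice was 116 CPM ± 10.9 (SD, n = 8) in GMP-like cells and 116 CPM ± 20.2 in basophil and mast progenitor-like cells, ranges that overlapped, and 79.0 CPM ± 10.5 in granulocyte and 76.0 CPM ± 6.09 in monocyte progenitor-like cells. HSC-like and MPP-like cells held 32.1 CPM ± 11 and 36.1 CPM ± 7.43, and erythroid-like cells, in which the gene has no known part, 4.23 CPM ± 1.64. The ranges of GMP-like and granulocyte progenitor-like cells did not overlap, whereas those of granulocyte and monocyte progenitor-like cells did.

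The other C/EBP genes were highest in granulocyte progenitor-like cells. Cebpe (chr14:54710360-54712174, minus strand) was at 403 CPM ± 40.8 there, 139 CPM ± 43.7 in GMP-like cells and 119 CPM ± 32.4 in basophil and mast progenitor-like cells, against 53.3 CPM ± 11.8 in monocyte progenitor-like cells and 5.60 CPM ± 2.14 in HSC-like cells. The step from granulocyte progenitor-like to GMP-like cells and the step from basophil and mast to monocyte progenitor-like cells each separated all 8 mice. Cebpd (chr16:15887286-15891031, plus strand) was at 176 CPM ± 43.8 in granulocyte, 85.2 CPM ± 14.2 in monocyte progenitor-like and 62.4 CPM ± 7.18 in GMP-like cells. Cebpb (chr2:167688915-167690418, plus strand) was less sharply placed, with 196 CPM ± 35.9 in granulocyte, 129 CPM ± 21.1 in monocyte progenitor-like, 83.9 CPM ± 11.2 in GMP-like and 48.3 CPM ± 9.39 in HSC-like cells, and with overlap between the first and the second of these.

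Spi1 (chr2:91082390-91115756, plus strand) was present in every myeloid population. It was at 422 CPM ± 50.1 in dendritic, 330 CPM ± 53.3 in granulocyte and 260 CPM ± 31.2 in monocyte progenitor-like cells, 213 CPM ± 22 in GMP-like, 139 CPM ± 11.8 in MPP-like and 124 CPM ± 21.3 in HSC-like cells. Megakaryocyte progenitor-like cells (40.4 CPM) and erythroid-like cells (13.4 CPM ± 4.05) lay below every HSC-like value.

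Irf8 (chr8:120736358-120756694, plus strand) was placed on the dendritic and monocyte side. Dendritic progenitor-like cells held 1682 CPM ± 286 and monocyte progenitor-like cells 370 CPM ± 75.5, and neither range met the next one below it. MPP-like cells followed with 131 CPM ± 41.3 and GMP-like cells with 111 CPM ± 35.4, which overlapped. Granulocyte progenitor-like cells held 32.4 CPM ± 13.8 and HSC-like cells 23.9 CPM ± 11.5. The middle-aged male was the lowest of the 8 mice in HSC-like, MPP-like, GMP-like, granulocyte and monocyte progenitor-like cells. Irf4 (chr13:30749226-30766976, plus strand) was scarce: 23 UMIs in dendritic progenitor-like cells (4.50 CPM ± 2.59), 30 in MPP-like and 12 in HSC-like cells, and 0 in GMP-like, granulocyte and basophil and mast progenitor-like cells.

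Gfi1 (chr5:107716657-107726036, minus strand) was at 85.9 CPM ± 11.5 in granulocyte progenitor-like, 37.4 CPM ± 3.57 in GMP-like and 22.8 CPM ± 3.17 in monocyte progenitor-like cells, 3 ranges that did not overlap. HSC-like and MPP-like cells held 17.2 CPM ± 4.15 and 15.3 CPM ± 3.44. Klf4 (chr4:55527143-55532466, minus strand) was at 142 CPM ± 29.5 in dendritic and 12.4 CPM ± 2.89 in monocyte progenitor-like cells, which did not overlap, and at 2.06 CPM or less in MPP-like, HSC-like, GMP-like and granulocyte progenitor-like cells.

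**Figure D1:**
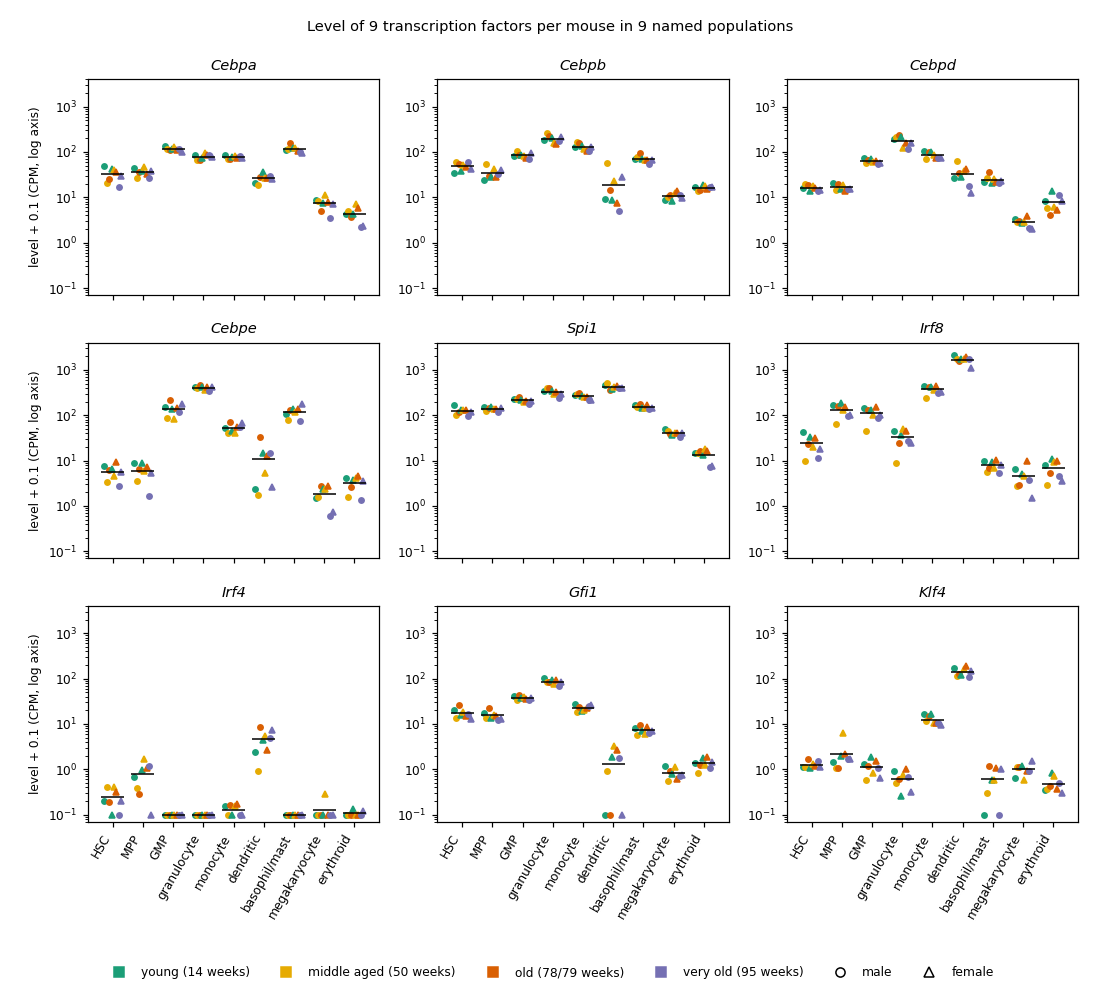
Levels of the 9 transcription factor genes in 9 named populations, with 1 point per mouse on a log axis in CPM (0.1 CPM was added so that zeros can be drawn) and a black line for the mean of 8 mice. Cebpe and Gfi1 peak in granulocyte progenitor-like cells and Irf8, Spi1 and Klf4 in dendritic progenitor-like cells, while Cebpa sits near 116 CPM in both GMP-like and basophil and mast progenitor-like cells.

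The comparison of granulocyte with monocyte progenitor-like cells addressed how the factors divide between the branches that leave the GMP. Of the 9 genes, 3 were higher in granulocyte progenitor-like cells (Cebpe, Gfi1 and Cebpd), 2 were lower (Irf8 and Klf4) and 4 did not pass. A gene was called in edgeR's quasi-likelihood test, with mouse as a block, at a Benjamini-Hochberg adjusted p under 0.05 and a log2 fold change beyond 1 in either direction, which 10.2% of all 12274 genes tested reached. The median log2 difference was 0.36 over the 9 genes and -0.02 over all genes.

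Cebpe had 343 CPM in the lowest mouse, a median of 411 and 475 in the highest in granulocyte progenitor-like cells, against 39.7, 53.6 and 70.7 in monocyte progenitor-like cells. The lowest granulocyte value thus stood well above the highest monocyte value, and the log2 fold change was 2.97 (SE 0.117, 7.81-fold, edgeR adjusted p = 3.06e-22). Gfi1 had 66.8, 84.9 and 105 CPM against 18.4, 23.1 and 26.8, again without overlap, with a log2 fold change of 1.94 (SE 0.0724, 3.83-fold, edgeR adjusted p = 2.12e-28). Cebpd had 117, 174 and 235 CPM against 70.2, 80.2 and 105, the narrowest gap of the 3, with a log2 fold change of 1.06 (SE 0.0908, 2.08-fold, edgeR adjusted p = 1.16e-12), close to the limit, and it lay under the limit without the middle-aged male (0.98). Without TMM scaling the means of Cebpd were 134 and 75.2 CPM, and its summed UMIs gave a 1.82-fold difference, also under the limit.

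In the other direction, Irf8 had 8.91 CPM in the lowest mouse, a median of 31.2 and 49.8 in the highest in granulocyte progenitor-like cells, against 236, 390 and 446 in monocyte progenitor-like cells. Every granulocyte value lay below every monocyte value, and Irf8 was 11.7-fold lower (log2 fold change -3.55, SE 0.173, edgeR adjusted p = 1.82e-19). Klf4 had 0.16, 0.537 and 0.904 CPM, 20 UMIs in all, against 9.23, 10.9 and 16.4 CPM, and was 23.7-fold lower (log2 fold change -4.57, SE 0.278, edgeR adjusted p = 8.63e-19). For each of these 5 genes all 8 mice went the same way, and an exact two-sided permutation test over the 8 mice gave p = 0.00781, the smallest it can give (0.011 after Benjamini-Hochberg adjustment over 45 such tests).

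The other 4 genes did not pass. Cebpb was 1.53-fold higher in granulocyte progenitor-like cells (153, 192 and 255 CPM against 104, 127 and 162; log2 fold change 0.61, SE 0.106, edgeR adjusted p = 5.86e-06) and Spi1 1.28-fold higher (log2 fold change 0.36, SE 0.0626, edgeR adjusted p = 2.11e-06). Both were higher in 8 of 8 mice, with overlapping ranges, and both lay under the fold limit. Cebpa had 64.6, 80.5 and 95.6 CPM against 67.9, 75.0 and 85.3, and its log2 difference of 0.06 (SE 0.0971, edgeR adjusted p = 0.604) was higher in 5 of 8 mice (exact permutation p = 0.344). Without TMM scaling its mean was 61.5 CPM in granulocyte and 67.2 in monocyte progenitor-like cells, the opposite order. Irf4 had 0 UMIs against 4, too few for a fold.

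**Figure D2:**
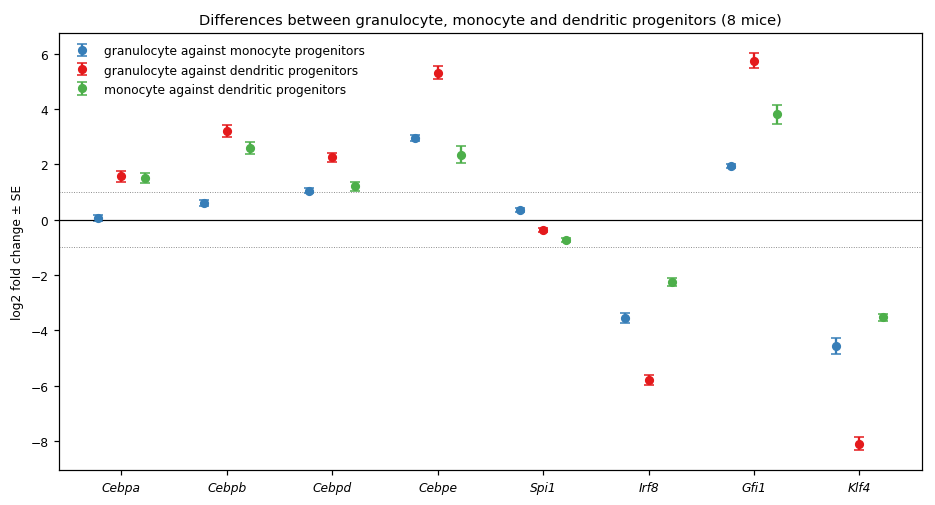
Log2 fold changes (points) with standard errors (bars) of 8 of the genes in the 3 comparisons between granulocyte, monocyte and dendritic progenitor-like cells, from the edgeR fit over the sums of 8 mice. Dotted lines mark a log2 fold change of 1 in either direction; Irf4, at 0 UMIs in some populations, is left out. Cebpe and Gfi1 lie far to the granulocyte side and Irf8 and Klf4 far to the other, with Spi1 within the limits throughout.

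Dendritic progenitor-like cells differed from both other branches in most of the 9 genes. Against granulocyte progenitor-like cells 8 of the 9 were called, 5 higher in granulocyte (Cebpa, Cebpb, Cebpd, Cebpe and Gfi1) and 3 higher in dendritic cells (Irf8, Irf4 and Klf4), where 35% of all genes tested were called. Against monocyte progenitor-like cells the same 8 were called in the same directions, where 26.7% of all genes were. Both comparisons share the dendritic sums, which rest on 33 to 109 cells per mouse.

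Irf8 had 1107 CPM in the lowest mouse, a median of 1702 and 2108 in the highest in dendritic progenitor-like cells, above every value in other populations. It was 56-fold lower in granulocyte (log2 fold change -5.81, SE 0.185, edgeR adjusted p = 6.2e-26) and 4.8-fold lower in monocyte progenitor-like cells (-2.26, SE 0.148, edgeR adjusted p = 4.21e-16). Klf4 had 110, 137 and 190 CPM in dendritic cells, and was 275-fold lower in granulocyte (-8.10, SE 0.236, edgeR adjusted p = 1.31e-31) and 11.6-fold lower in monocyte progenitor-like cells (-3.53, SE 0.135, edgeR adjusted p = 7.84e-27). The monocyte progenitor-like cells thus held an intermediate level of both genes. With populations assigned by marker scores in place of clusters, the difference of Irf8 between monocyte and dendritic progenitor-like cells was -0.40 and no longer passed. Irf4 had 0.838, 4.61 and 8.4 CPM in dendritic cells and was at least 66.1-fold higher there than in granulocyte progenitor-like cells, taking 3 UMIs over the group as the floor for its count of 0.

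The C/EBP genes and Gfi1 showed the reverse. Gfi1 had 9 UMIs in dendritic progenitor-like cells, with 3 libraries at 0, and was 54.1-fold higher in granulocyte (log2 fold change 5.76, SE 0.264, edgeR adjusted p = 9.57e-26) and 14.1-fold higher in monocyte progenitor-like cells (3.82, SE 0.349, edgeR adjusted p = 5.19e-14). Cebpe had 1.68 CPM in the lowest mouse, a median of 8.91 and 33.6 in the highest in dendritic cells, and was 40-fold higher in granulocyte (5.32, SE 0.243, edgeR adjusted p = 4.47e-21) and 5.12-fold higher in monocyte progenitor-like cells (2.36, SE 0.316, edgeR adjusted p = 3.66e-08). Even the highest dendritic value of Cebpe lay below every monocyte value. Cebpa, with 18.4, 26.4 and 35.3 CPM in dendritic cells, was 2.97-fold higher in granulocyte and 2.84-fold higher in monocyte progenitor-like cells, and Cebpb and Cebpd were higher by 9.33- and 4.81-fold in granulocyte and by 6.1- and 2.31-fold in monocyte progenitor-like cells, the last of these falling under the limit at resolution 0.4 (0.89). Spi1 was lower by a log2 difference of -0.38 (SE 0.0709, edgeR adjusted p = 3.75e-06) in granulocyte and -0.74 (SE 0.0702, edgeR adjusted p = 6.37e-14) in monocyte than in dendritic progenitor-like cells, both under the fold limit.

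Priming was then examined in the immature populations. From HSC-like to MPP-like cells, 2 of the 9 genes were called, Irf8 and Irf4, both higher in MPP-like cells, where 7.16% of all genes tested were called. Lymphoid markers moved with this step, the 15 of them summing to 148.3 to 184.7 CPM in HSC-like and 1099 to 1468 in MPP-like cells of young mice, and their part in the result was not tested. The median log2 difference was 0.18 over the 9 genes and -0.02 over all genes. From MPP-like to GMP-like cells 6 were called, Cebpa, Cebpb, Cebpd, Cebpe and Gfi1 higher and Irf4 lower, where 15.6% of all genes were called. The medians were 1.34 over the 9 genes and -0.05 over all genes, the latter -0.12 with DESeq2.

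In HSC-like cells Irf8 had 9.74 CPM in the lowest mouse, a median of 21.8 and 43.1 in the highest, and in MPP-like cells 62.4, 142 and 182. The ranges did not overlap and the log2 fold change was 2.49 (SE 0.169, 5.63-fold, edgeR adjusted p = 8.52e-15; exact permutation p = 0.00781). The size of this step depended on where the MPP-like clusters were drawn, and it did not pass when the 9 genes and the related lists were allowed in the clustering (0.30, edgeR adjusted p = 0.0931) or without Harmony (0.80). Irf4 was higher in MPP-like cells in 6 of 8 mice on 30 and 12 UMIs (log2 fold change 2.09, SE 0.509, edgeR adjusted p = 0.000637), with an exact permutation p of 0.0469 (0.0555 after adjustment). Cebpb was lower in MPP-like than in HSC-like cells in 8 of 8 mice, but by less than the limit (log2 fold change -0.49, SE 0.131, edgeR adjusted p = 0.00227). The remaining 6 genes had log2 differences of -0.16 to 0.77. Some of these passed where the MPP-like cells were drawn differently: Cebpe with the listed genes in the clustering (2.51), without Harmony (2.61) and at resolution 0.4 (2.69), Cebpa with marker scores (2.59) and at resolution 0.4 (1.4), and Klf4 at resolution 0.4 (1.02).

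Among the 5 genes that rose into GMP-like cells, Cebpe had the largest fold change. It rose from a mean of 5.87 CPM in MPP-like cells to 83.6 CPM in the lowest mouse, a median of 141 and 215 in the highest, a log2 fold change of 4.53 (SE 0.172, 23.2-fold, edgeR adjusted p = 5.37e-23). Cebpd rose 3.92-fold (1.97, SE 0.124, edgeR adjusted p = 8.57e-17), Cebpa 3.37-fold (1.75, SE 0.107, edgeR adjusted p = 3.77e-17), and Cebpb and Gfi1 2.53-fold each (1.34, SE 0.128, edgeR adjusted p = 1.23e-11, and 1.34, SE 0.0924, edgeR adjusted p = 3.42e-18). The Gfi1 step lay under the limit with the same listed genes in the clustering (0.82), without Harmony (0.50) and at a clustering resolution of 0.4 (0.40), at which Cebpb also lay under it (0.87). Irf4 had 0 UMIs in GMP-like cells and was at least 16.3-fold lower than in MPP-like cells. Spi1 was higher by a log2 difference of 0.67 (SE 0.0656, edgeR adjusted p = 2.33e-13), under the limit, but passed it with the listed genes in the clustering (1.74), without Harmony (1.5) and at resolution 0.4 (1.51). Klf4 had a log2 difference of -0.91 (SE 0.332, edgeR adjusted p = 0.0134) and passed the limit in 9 alternatives (-1.0 to -2.15), 3 of them the omission of the old male (-1.03), the young male (-1.04) or the young female (-1.10). Irf8 differed by -0.19 (SE 0.152, edgeR adjusted p = 0.268), lower in 7 of 8 mice.

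A level summed over a population does not separate more cells with a transcript from more transcripts in each, so the share of cells with a UMI was taken after thinning every cell to 4000 UMIs. In 7329 HSC-like cells, 36.9% ± 5.78 (SD, n = 8 mice) had a UMI of Spi1, 17.5% ± 3.22 of Cebpb, 9.99% ± 3.67 of Cebpa and 7.65% ± 3.65 of Irf8. In erythroid-like cells, taken as the background, the shares at the same depth were 5.28%, 5.78%, 1.64% and 1.97%, lower than the HSC-like mean in each case. That background was not the lowest for every gene: Cebpb was at 16.2 CPM there and 10.6 CPM in megakaryocyte progenitor-like cells. Cebpe (1.83% against 1.05%) and Irf4 (0.114%) in HSC-like cells stood close to the erythroid-like shares. Klf4 was found in few HSC-like cells (0.468% against 0.175%), though its levels there, 0.955 to 1.58 CPM, lay above the erythroid-like 0.207 to 0.728 CPM. In MPP-like cells the share with Irf8 was 28.9% ± 7.53 and in GMP-like cells 27.8% ± 6.63, whereas the share with Cebpe went from 1.49% to 29.7% ± 7.08 and that with Cebpa from 12% to 34.1% ± 2.38. Of the 2858 MPP-like cells that remained at this depth 2363 were of cluster 11, led by Dntt, a gene of lymphoid progenitors, so the MPP-like share mainly describes that cluster. The mean share with Irf8 was 30.9% in cluster 11 and 18.5% over the 7 mice with a value in cluster 2. Thinning left out 385 HSC-like, 3365 MPP-like and 1491 GMP-like cells of lower depth, and without it the shares in HSC-like cells were 63.6% for Spi1, 22% for Cebpa and 16.8% for Irf8, against 20.4%, 7.71% and 7.33% in erythroid-like cells.

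**Figure D3:**
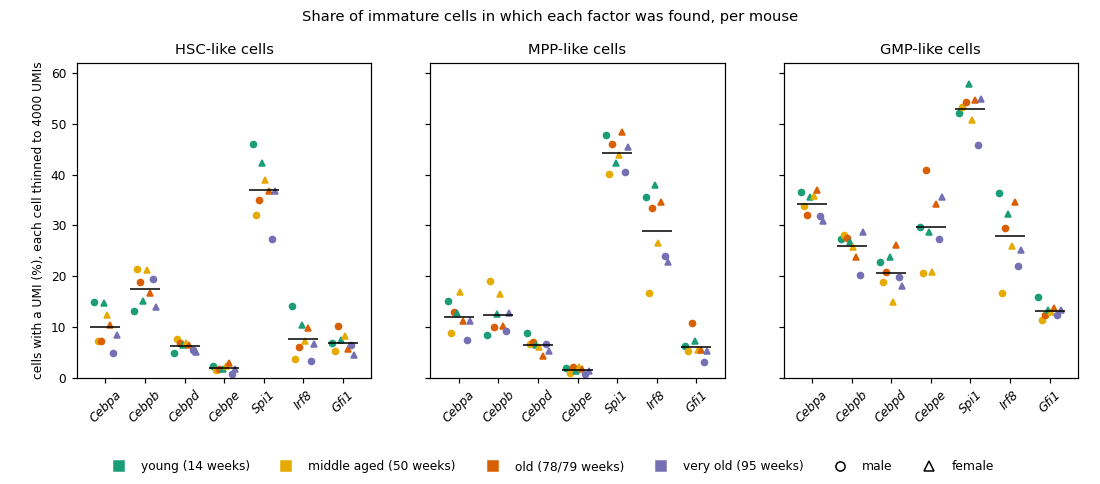
Percent of cells with a UMI of 7 of the genes in HSC-like, MPP-like and GMP-like cells, each cell thinned to 4000 UMIs, with 1 point per mouse and a line for the mean. Irf8 goes from 7.65% to 28.9% between HSC-like and MPP-like cells, and Cebpe from 1.49% to 29.7% between MPP-like and GMP-like cells.

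Whether the factors of opposite branches were seen in the same cells was described at the same depth, without a test, since cells of a mouse share their library. In GMP-like cells Irf8 was detected in 16.1% of cells with a UMI of Cebpe and in 33.2% of cells without, as means over mice, and was less frequent with Cebpe in 8 of 8 mice. The same order held in monocyte progenitor-like cells (23.2% against 64.8%) and in granulocyte progenitor-like cells (4.03% against 9.79%), again in 8 of 8 mice each. The monocyte progenitor-like cells were not uniform in these genes, as the levels in their clusters below show. In HSC-like cells, where the share with Cebpe was close to background, 18 cells had both and no order is read. Cells with both transcripts nevertheless existed, 176 of them in GMP-like, 193 in monocyte and 73 in granulocyte progenitor-like cells, and doublets were not removed. With Gfi1 in place of Cebpe, Irf8 was at 44.8% against 60.8% in monocyte progenitor-like cells (lower in 8 of 8 mice) and at 21.7% against 28.8% in GMP-like cells (lower in 6 of 8), against 8.82% and 7.54% in HSC-like cells (higher in 7 of 8).

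Pairs of genes from the same branch were described likewise. Irf8 was detected in 85.8% of monocyte progenitor-like cells with Klf4 and 58.5% of those without, and Gfi1 in 14.2% of monocyte progenitor-like cells with Cebpe and 6.37% of those without, in 8 of 8 mice each. For Gfi1 with and without Cebpe the shares were 17.3% and 11.3% in GMP-like cells (higher in 7 of 8 mice) and 24.9% and 19.7% in granulocyte progenitor-like cells (6 of 8). In HSC-like cells Irf8 was detected in 13.1% of cells with a UMI of Cebpa and 7.02% without (8 of 8 mice), whereas in GMP-like cells the shares were 27.5% and 27.9% (higher in 3 of 8 mice).

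**Figure D4:**
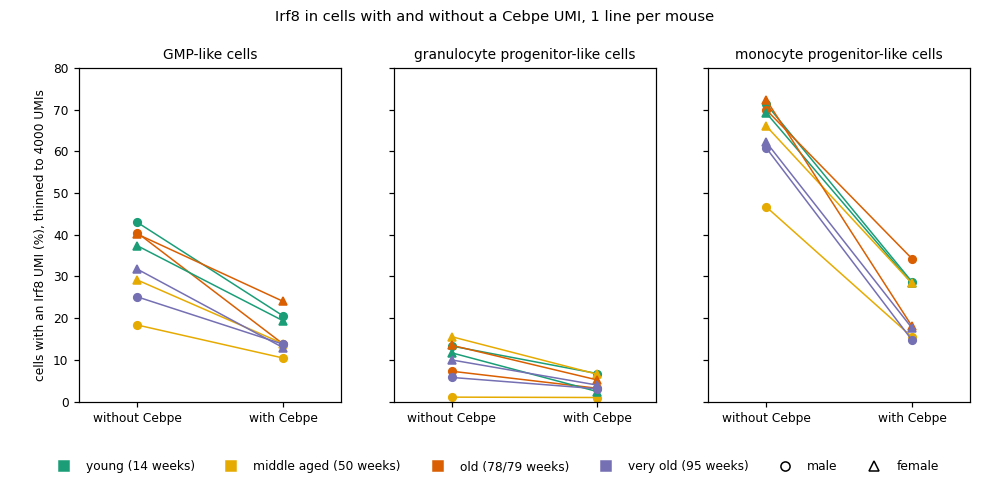
Percent of cells with a UMI of Irf8 among cells without and with a UMI of Cebpe in GMP-like, granulocyte progenitor-like and monocyte progenitor-like cells, thinned to 4000 UMIs, with each line joining the 2 values of 1 mouse. All 8 lines descend in each population.

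The monocyte progenitor-like cells comprised 2 clusters of similar depth, and their levels are given as a description because clustering used the same cells. Cluster 5, led by the replication gene Pclaf beside F13a1, also had the GMP markers Elane and Prtn3 among its leading genes. It held 87.2 CPM of Cebpe, 291 of Irf8, 29.4 of Gfi1 and 9.70 of Klf4. Cluster 6, led by F13a1 and Ms4a6c, held 19.8 CPM of Cebpe, 521 of Irf8, 18.0 of Gfi1 and 17.6 of Klf4. The granulocyte-side genes were thus higher in the cluster with the replication gene and the GMP markers, and the monocyte-side genes were higher in the other. The part of either in this difference was not tested. Within cluster 5 alone Irf8 was detected in 10.1% of cells with Cebpe and 51.2% of cells without. At resolution 1.6 a cluster of 1523 cells with Elane, Cebpe and Pclaf among its leading genes was named GMP-like. Whether cluster 5 mixed granulocyte-side with monocyte-side cells was not tested.

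Other genes of the pathway were counted in 2 lists, 36 related transcription factors and 22 myeloid receptors and effectors. In granulocyte against monocyte progenitor-like cells, where 10.2% of all genes were called, 786 of 1252 of them lower, 1 of 35 related factors tested was higher, Id2 (log2 fold change 1.57), an inhibitor of E proteins, and 9 were lower, with a median of -0.32. The lowest were Rara, the retinoic acid receptor alpha (-2.76), and Irf5, a relative of Irf8 (-2.18). Of 21 receptors and effectors tested 5 were higher, led by the interferon-gamma receptor Ifngr1 (1.62), the lipopolysaccharide receptor Tlr4 (1.6) and the integrin Itgam (1.59), and 2 were lower, the M-CSF receptor Csf1r (-2.92) and the interleukin-6 receptor Il6ra (-1.50), with a median of 0.34. Id2 and Il6ra were named after their values were seen, as members of counts this small. From MPP-like to GMP-like cells 1 of the related factors was higher and 15 were lower, against 7 and 1 of the receptors and effectors. Over all genes 15.6% were called in that comparison, 428 higher and 1482 lower.

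Ageing was examined within each of the 6 populations by comparing old and very old mice (n = 4, hereafter older mice) with young mice (n = 2), with sex in the edgeR fit and a call at an adjusted p under 0.05. None of the members was called in any population, of 8 tested in HSC-like, MPP-like, GMP-like and monocyte progenitor-like cells and 7 in granulocyte and dendritic progenitor-like cells. The shares of all genes called were 6.14% in HSC-like, 0.712% in MPP-like, 0.132% in GMP-like, 0.00954% in granulocyte, 0.174% in monocyte and 0% in dendritic progenitor-like cells. With an unadjusted p under 0.05, 4 members stood out in HSC-like cells, 3 in monocyte progenitor-like, 2 each in MPP-like and GMP-like, 1 in granulocyte and 0 in dendritic progenitor-like cells. Over all genes tested that threshold was passed by 2746 of 12514 in HSC-like, 1040 of 12061 in monocyte progenitor-like, 900 of 11511 in MPP-like, 726 of 11366 in GMP-like, 391 of 10477 in granulocyte and 209 of 7269 in dendritic progenitor-like cells. With DESeq2, 2 members, Cebpa and Irf8, were called in HSC-like cells, where 435 genes were higher and 81 lower of 12514, and 0 members in the other 5 populations.

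In HSC-like cells the level of Cebpa was 47.9 and 42.3 CPM in the young male and female, 20.2 and 39.5 in the middle-aged, 25.5 and 35.1 in the old and 17 and 29 in the very old mice. All 4 older mice lay below both young mice, with a log2 fold change of -0.86 (SE 0.209, edgeR adjusted p = 0.0592). Irf8 was at 43.1 and 33.2 CPM in the young, 9.74 and 20.2 in the middle-aged, 23.4 and 32.0 in the old and 11.2 and 18.2 in the very old mice, likewise below both young mice (log2 fold change -1.0, SE 0.258, edgeR adjusted p = 0.0798). Cebpb went the other way, with 34.4 and 38.5 CPM in the young, 59.3 and 51.2 in the middle-aged, 55.3 and 47.1 in the old and 58.8 and 42.2 in the very old mice (log2 fold change 0.43, SE 0.121, edgeR adjusted p = 0.0529). Spi1, at 147 CPM ± 23.6 in young and 115 CPM ± 15.5 in older mice, overlapped between them (log2 fold change -0.40, edgeR adjusted p = 0.101). The calls turned on single mice and on how the cells were drawn. Without the young female all 4 genes passed (Cebpa -1.30, Irf8 -1.52, Cebpb 0.67, Spi1 -0.70), without either middle-aged mouse Cebpa passed (-0.84 each), and without the very old female Cebpb passed (0.52). With all mice kept, all 4 passed at resolution 0.4 (Cebpa -1.27, Irf8 -1.35, Cebpb 0.67, Spi1 -0.52), and Cebpa (-0.78) and Irf8 (-1.04) at resolution 1.6. Cebpb also passed with marker scores (1.03), without Harmony (0.48) and with listed genes in the clustering (0.46).

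Other measures moved with these levels in HSC-like cells. The summed level of the 15 HSC markers was 654.1 to 666.7 CPM in young and 851.3 to 1463 in older mice, with 15 of 15 genes higher, and that of the 13 monocyte markers 264.4 to 307.8 against 143.3 to 221.2, with 0 of 13 higher. The 8 macrophage markers went from 47.47 to 62.83 CPM in young to between 8.718 and 30.01 in older mice, with 0 of 8 higher. The 15 lymphoid markers summed to 148.3 to 184.7 CPM in young and 75.89 to 105.4 in older mice (5 of 15 higher), the 11 megakaryocyte markers to 304.7 to 331.7 and 390.8 to 511.4 (10 of 11 higher) and the 16 dendritic markers to 350.4 to 433.3 and 528.8 to 634.3 (7 of 16 higher). The 11 GMP markers summed to 3789 to 3882 CPM in young and 2333 to 3783 in older mice (2 of 11 higher). The median depth of HSC-like cells was 11046 and 10535 UMIs in the young and 8028 to 8888 in the older mice. The HSC-like cells also comprised 2 clusters, and the share of the smaller was 22.87% and 22.79% in the young, 30.14% and 25.07% in the middle-aged, 40.24% and 30.43% in the old and 42.5% and 22.54% in the very old mice. The part of these in the results was not tested.

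That smaller cluster, number 13 with 2347 cells, was led by Sult1a1, Nupr1, Meg3, Trim47 and Procr, the last a surface marker of long-term HSC, and was examined alone after the data were seen. It held 63.4 CPM ± 22.4 of Cebpb, 69.2 of Spi1, 9.85 of Irf8 and 4.15 of Cebpa. The larger HSC-like cluster, number 0 with 5367 cells and led by Myl10, held 41.4, 142, 28.2 and 40.8 CPM. The share of cells with a UMI of Cebpa in cluster 13, 1.64% at equal depth, was that of the erythroid-like background, and its Cebpa is therefore not read further.

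In cluster 13, 5 of 6 members tested passed in older against young mice (4 of 5 without Cebpa), where 12.1% of all 10519 genes tested were called. Cebpb was at 28.7 and 35.2 CPM in the young male and female, 71.7 and 63.5 in the middle-aged, 83.5 and 79.4 in the old and 90.2 and 55.1 in the very old mice. Every older mouse was above both young mice, and Cebpb rose 2.45-fold (log2 fold change 1.29, SE 0.169, edgeR adjusted p = 6.85e-06). Cebpd rose from 7.18 and 7.53 CPM in the young to 21.4 and 20.3 in the old and 18.3 and 13.9 in the very old mice (log2 fold change 1.31, SE 0.294, edgeR adjusted p = 0.00287). The young values of Cebpd were near those of erythroid-like cells, which held 7.75 CPM, though the CPM of clusters and of populations were scaled separately. The shares of cells with a UMI at equal depth were 2.65% and 2.99% in young cluster 13 against 2.43% and 3.65% in young erythroid-like cells. Megakaryocyte progenitor-like cells held less Cebpd (2.76 CPM), so the erythroid-like level was not the lowest. Spi1 fell from 108 and 86 CPM in the young to 60.7 and 60.9 in the old and 46.8 and 59.2 in the very old mice (log2 fold change -0.78, SE 0.139, edgeR adjusted p = 0.000355).

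Irf8, at 18.5 and 12.6 CPM in the young and 5.11 to 12.5 in the older mice of cluster 13, also fell (log2 fold change -0.95, SE 0.287, edgeR adjusted p = 0.0275). Erythroid-like cells held 6.68 CPM of Irf8. Gfi1 had a log2 difference of -0.26 (edgeR adjusted p = 0.52). In middle-aged against young mice 4 members passed in the same cluster, where 4.08% of all genes were called: Cebpb (log2 fold change 1.07, edgeR adjusted p = 0.000967) and Cebpd (1.55, edgeR adjusted p = 0.00283) higher, and Irf8 (-1.27, edgeR adjusted p = 0.0329) and Spi1 (-0.59, edgeR adjusted p = 0.0351) lower. The call of Cebpb in older mice held in 14 of 14 alternatives, that of Spi1 in 13, Cebpd in 12 and Irf8 in 9. These alternatives left mice out or changed the test, scaling, gene filter, sex term or ages compared, and none redrew the cluster. Without the young male Cebpb alone was called in older mice and none in middle-aged mice. The young sums in this cluster rest on 172 and 178 cells.

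In cluster 0 none of the 7 members tested was called in older mice, where 1.19% of all genes were, nor in middle-aged mice, where 0.488% were. Cebpb there was at 35.8 and 40.4 CPM in the young, 58.1 and 49.3 in the middle-aged, 34.3 and 35.8 in the old and 38.1 and 39.7 in the very old mice. The older mice overlapped the young (log2 fold change -0.03, SE 0.112, edgeR adjusted p = 0.952), and both middle-aged mice lay above them without a call (0.50, SE 0.125, edgeR adjusted p = 0.0984). Cebpa was at 57.1 and 50.5 CPM in the young and 25.6 to 45.8 in the older mice, below both young mice but not called (log2 fold change -0.61, SE 0.194, edgeR adjusted p = 0.251). The difference in age effect between the clusters was not tested. In cluster 13 the monocyte markers summed to 157.4 to 275.3 CPM in young and 74.57 to 124.5 in older mice (1 of 13 higher), the macrophage markers to 61.42 to 71.99 and 8.543 to 35.5 (0 of 8 higher) and the HSC markers to 1589 to 1663 and 2270 to 2456 (14 of 15 higher). The 11 megakaryocyte markers summed to 418.5 to 478.2 and 603.3 to 709.4 CPM (9 of 11 higher) and the 9 T and NK cell markers to 4.141 to 6.352 and 24.22 to 51.5 CPM (4 of 9 higher, 3 at 0). The 12 MPP markers summed to 2472 to 2952 and 1912 to 2335 CPM (4 of 12 higher) and the 15 lymphoid markers to 82.58 to 93.85 and 55.59 to 75.41 CPM (3 of 15 higher). The part of these lists in the result was not tested.

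**Figure D5:**
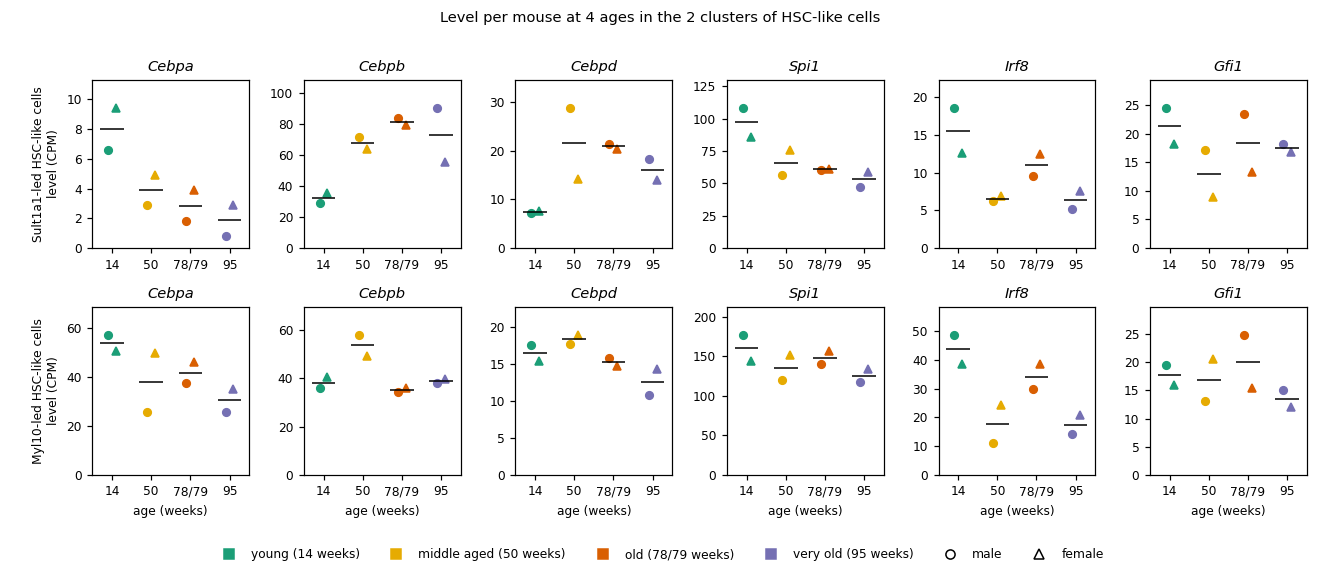
Levels in CPM of 6 of the genes at the 4 ages in the Sult1a1-led cluster 13 and the Myl10-led cluster 0 of HSC-like cells, with 1 point per mouse. In cluster 13 all 6 mice of 50 weeks or more lie above both young mice for Cebpb and Cebpd and below both for Spi1 and Irf8, while Cebpb in cluster 0 of older mice overlaps the young values.

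Outside HSC-like cells the age differences of the members were examined in the same way. In monocyte progenitor-like cells Klf4 was at 16.4 and 16.1 CPM in the young, 11.2 and 10.4 in the middle-aged, 15 and 10.5 in the old and 10.4 and 9.23 in the very old mice. All 6 mice of 50 weeks or more were below both young mice, and the difference was called in middle-aged mice (log2 fold change -0.60, SE 0.14, 1.51-fold lower, edgeR adjusted p = 0.0381, 2.43% of all genes called) and not in older mice (-0.55, SE 0.119, edgeR adjusted p = 0.0693). In older mice it passed without the old male (-0.65), with no filter on low counts (-0.55) and in very old mice alone (-0.73). Cebpe in the same cells was at 51.9 and 44.0 CPM in the young and 55.4 to 70.7 in the older mice (log2 fold change 0.39, edgeR adjusted p = 0.298), and passed without the old female (0.47), without the very old male (0.50) and with no filter on low counts. The mix of the 2 monocyte progenitor-like clusters also differed with age, with cluster 5 at 47.35% and 46.4% in the young, 50.17% and 48.89% in the middle-aged, 43.01% and 51.03% in the old and 58.27% and 59.01% in the very old mice. Within cluster 5 the Klf4 difference was -0.90 in middle-aged mice (edgeR adjusted p = 0.0417) and -0.78 in older mice (0.0801), and within cluster 6 -0.39 (0.223) and -0.28 (0.727). Cebpe in older mice differed by 0.37 in cluster 5 (edgeR adjusted p = 0.476) and -0.07 in cluster 6 (0.99). In MPP-like cells Cebpe had 8.71 CPM in young and 5.08 in older mice (log2 fold change -0.89, edgeR adjusted p = 0.209). Irf8 in MPP-like cells was at 167 and 182 CPM in the young and 62.4 and 133 in the middle-aged mice. It was at 157 and 151 CPM in the old and 97.0 and 98.6 in the very old mice. Irf8 was not called in older mice, but passed with no filter on low counts (-0.53) and without either middle-aged mouse (-0.52 each). In GMP-like cells Cebpd had 71.6 and 60.5 CPM (-0.25, edgeR adjusted p = 0.563), and in granulocyte progenitor-like cells Gfi1 had 99.4 and 82.2 CPM (-0.25, edgeR adjusted p = 1).

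The middle-aged mice gave 1 more call, Cebpb in MPP-like cells, where 0.791% of all genes were called. It was at 23.4 and 28.3 CPM in the young, 54.0 and 42.1 in the middle-aged, 29.3 and 28.4 in the old and 33.2 and 39.9 in the very old mice. The middle-aged pair was the highest of the 8 mice, with a log2 fold change of 0.93 (SE 0.156, 1.9-fold, edgeR adjusted p = 0.00642). This call was lost under 9 of 22 alternatives, without the middle-aged male (0.63) and without the young male (0.74) among them. The Cebpb difference was 0.02 with listed genes in the clustering, 0.10 without Harmony and 0.12 at resolution 0.4. The call of Klf4 in monocyte progenitor-like cells was lost under 11 of 23, among them each omission of a young or middle-aged mouse. The Klf4 difference was -0.16 with marker scores and -0.33 without Harmony. No member was called in middle-aged mice in HSC-like (0.711% of all genes called), GMP-like (1.09%), granulocyte (0.0764%) or dendritic progenitor-like cells (0.0688%). For Irf8, middle-aged mice stood against young mice at log2 differences of -1.41 in HSC-like (edgeR adjusted p = 0.144), -0.87 in MPP-like (0.277), -1.0 in GMP-like (0.303) and -0.58 in monocyte progenitor-like cells (0.0535), and the middle-aged male had the lowest value in each. Each of the 4 passed under some alternatives, and without the middle-aged female Irf8 passed in MPP-like (-1.41), GMP-like (-1.61) and monocyte progenitor-like cells (-0.90), without the young female in HSC-like cells (-1.94), and without either very old mouse in monocyte progenitor-like cells (-0.58 each).

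Cebpe in GMP-like cells was at 152 and 138 CPM in the young, 87.4 and 83.6 in the middle-aged, 215 and 143 in the old and 118 and 173 in the very old mice. Both middle-aged mice were the lowest of the 8, with a log2 difference of -0.78 (SE 0.232, edgeR adjusted p = 0.189). It passed without the old male, the old female, the very old male or the very old female (-0.77 to -0.78), with no filter on low counts and with listed genes in the clustering (-0.65). Cebpb in middle-aged HSC-like cells had a log2 difference of 0.61 (SE 0.136, edgeR adjusted p = 0.0644), with both mice above both young mice, and passed in 9 alternatives (0.59 to 1.07), among them without either very old mouse (0.62 each) and without the young female (0.85).

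Among the related transcription factors, 5 of 33 tested were called in HSC-like cells of older mice, where 6.14% of all genes were: Maf (log2 fold change 1.98, edgeR adjusted p = 0.000318), Id2 (1.43, 0.0129), Junb (0.61, 0.0287) and Gata2, a factor of stem and mast cells (0.60, 0.00879), higher and Ikzf1, a lymphoid factor (-0.38, 0.0446), lower. The oxidase subunit Ncf1 was the receptor or effector called, lower by -1.17 (edgeR adjusted p = 0.00357). Maf was also higher in MPP-like cells (1.65, edgeR adjusted p = 0.00454). In the other 4 populations none of either list was called.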

How the data were processed

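Raw UMI counts per gene and cell were deposited by the authors for each of the 8 mice. Per the file headers, the matrices came from Cell Ranger 6.0.0, whereas the study's methods name a later version, and the submitters' processing notes give the build mm10. The labels name Chromium v3 chemistry and the design text GEM-X v4.

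Barcodes under 200 detected genes were left out and no doublets were removed. The 2000 most variable genes, without the members and the 2 related lists, gave 30 principal components, which were corrected with Harmony (theta 1) and clustered (20 neighbours, Leiden resolution 0.8; scanpy 1.11.5, leidenalg 0.10.2). UMIs were summed per mouse and population (20 cells or more) and tested in edgeR 4.0.16 (R 4.3.3; filterByExpr, TMM, quasi-likelihood, Benjamini-Hochberg over all genes tested). The lineage and priming comparisons came from 1 fit of 48 sums with mouse as a block, and the age comparisons from 1 fit per population with sex as a term, in which old and very old mice had equal weight. For single genes, an exact two-sided permutation test changed the signs of the 8 within-mouse differences. Scripts were tested on simulated counts. Levels were not compared between genes.

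The members, the lists and the comparisons were chosen with earlier results of these data known. The text names the 9 members, listed genes called between granulocyte and monocyte progenitor-like cells (the 3 highest and 3 lowest) or in older mice (up to 6), and the 3 genes most like each member. Alternatives were RLE factors, no filter on low counts, DESeq2 1.42.0, stricter cell filters, doublets removed (2168 cells), no Harmony, resolutions 0.4 and 1.6, listed genes allowed in clustering, marker scores in place of clusters, each mouse left out, no mouse block, no sex term, and old or very old mice alone. Scrublet called under 0.5% of cells as doublets in the 4 middle-aged and old libraries, so the 334 to 509 cells of highest score in each were removed instead. Young and very old libraries lost only the 81 to 230 cells called, so this setting treated the ages differently. In other clusterings each cluster took the population that held most of its cells in the main one, not a name from markers. Gene positions are from GENCODE on GRCm38.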

Additional observations from a re-analysis of the deposited data

Results flagged for a closer look

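Of 51 sets of 8 mice (1 gene in 1 population), 3 held a mouse whose gap to the nearest of the others exceeded Dixon's 95% limit of 0.526 of the range; chance gives about 1 in 20. In dendritic progenitor-like cells Cebpb was at 57.79 CPM in the middle-aged male, with the others at 4.914 to 27.23 CPM, and Cebpe at 33.62 CPM in the old male, with the others at 1.675 to 14.74 CPM. In MPP-like cells Klf4 was at 6.068 CPM in the middle-aged female, with the others at 0.9506 to 2.093 CPM.

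Some age differences ran in opposite directions in different populations, with every mouse of the later age on one side of both young mice in one population and on the other side in the other. The differences between populations were not tested. In older mice Cebpe had a log2 difference of 0.385 in monocyte progenitor-like and -0.895 in MPP-like cells, and Klf4 0.332 in HSC-like and -0.546 in monocyte progenitor-like cells. The counts were low for Cebpe in MPP-like cells (264 UMIs over the 8 mice) and for Klf4 in HSC-like cells (96 UMIs). For the latter the very old female had 1.05 CPM against 1.04 in the young male. In middle-aged mice Cebpd had 0.366 in HSC-like and 0.744 in dendritic progenitor-like cells, against -0.344 in GMP-like and -0.385 in monocyte progenitor-like cells.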

How the results depend on the processing

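Of 870 values of single members in the lineage and priming comparisons under the alternatives, 842 kept their side of the threshold, 9 no longer passed and 18 newly passed. A further 1 called value reversed: Irf4 in MPP-like against HSC-like cells, -0.73 with marker scores in place of clusters. For older against young mice 37 of 1134 values newly passed, for middle-aged mice 20 of 996 no longer passed and 48 newly passed, and in cluster 13 23 of 156 no longer passed. Of all 3156 values, 184 that were not called changed sign, and these count as having kept their side.

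In MPP-like against HSC-like cells the 2 members called higher became 1 with the stricter cell filter, doublets removed, listed genes in the clustering, no Harmony or no clusters of low UMIs, and 5 at resolution 0.4, with 1 to 2 when a mouse was left out. In GMP-like against MPP-like cells the 1 called lower became 0 with doublets removed, where Irf4 was not tested, and 2 at resolutions 0.4 and 1.6, with 0 to 2 when a mouse was left out. Irf4 was not tested under any of the 5 settings that left 1 call in MPP-like cells, nor without the middle-aged female. Of these settings, listed genes in the clustering and no Harmony left Cebpe (2.51 and 2.61) and not Irf8, and the others left Irf8. In GMP-like against MPP-like cells Klf4, not Irf4, was the 1 called lower with the stricter cell filter (-1.658) or no clusters of low UMIs (-1.935). The same held with listed genes in the clustering (-2.036) and no Harmony (-2.154). In older HSC-like cells the 0 members called became 2 with DESeq2, no filter or resolution 1.6, 1 with listed genes in the clustering, marker scores or no Harmony, 4 at resolution 0.4 and 5 in cluster 13 alone, with 0 to 4 when a mouse was left out. In older MPP-like cells 2 were called with no filter (0 to 1 without a mouse), and in older monocyte progenitor-like cells 3 with no filter and 1 in very old mice alone (0 to 2 without a mouse). In cluster 13 the 5 called became 2 with DESeq2 and 3 in old mice alone, with 1 to 5 when a mouse was left out.

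In middle-aged mice, HSC-like cells gave 1 call with DESeq2, listed genes in the clustering, marker scores, no filter, no Harmony or resolution 1.6, 2 at resolution 0.4 and 4 in cluster 13 alone (0 to 3 without a mouse). MPP-like cells gave 2 with the stricter cell filter or no filter, and 0 with marker scores, without clusters of low UMIs, with a fold limit or in cluster 11 alone (0 to 2 without a mouse). GMP-like cells gave 1 with listed genes in the clustering, marker scores or no Harmony and 2 with no filter (0 to 1 without a mouse), and granulocyte progenitor-like cells 1 with no Harmony. Monocyte progenitor-like cells gave 2 with listed genes in the clustering, resolution 1.6 or RLE factors, 3 with no filter, and 0 with marker scores, no Harmony, no sex term, resolution 0.4, a fold limit or cluster 6 alone (0 to 2 without a mouse). Dendritic progenitor-like cells gave 1 with no filter (0 to 1 without a mouse), and cluster 13 1 with DESeq2 (0 to 4 without a mouse). Cluster 13 and the other single clusters were examined after the data were seen. The cause of these changes was not tested.

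Without thinning, 63.6% of HSC-like cells had a UMI of Spi1 and 16.8% of Irf8, and 49.5% of GMP-like cells had one of Irf8. At 2000 UMIs the shares were 22% for Spi1 in HSC-like cells and 15.9% and 18.8% for Irf8 in MPP-like and GMP-like cells. The labels give no replicate numbers; mice of the same sex were matched across ages by the sex term, and populations of the same mouse by the mouse block. With 2 mice per age, differences of the size seen in HSC-like cells turned on single mice and on how the cells were drawn.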

Other observations

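Basophil and mast progenitor-like cells held Cebpa and Cebpe at levels near those of GMP-like cells, but not in both of their clusters, whereas their Cebpd was at 24.2 CPM against 62.4 CPM in GMP-like cells. Cluster 18, with 1510 cells, held 138 CPM of Cebpa and 145 CPM of Cebpe, and cluster 22, with 524 cells and the mast cell protease Cma1 among its leading genes, 30.7 and 2.86 CPM. Irf8 in the whole population was at 7.71 CPM, near the 6.68 CPM of erythroid-like cells. These are levels of clusters drawn from the same cells and carry no test.

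The genes whose mean log2 levels over 10 populations were most like those of each member were taken from 7476 genes, as a description. Spi1 was most like Diaph2 (Pearson's r = 0.9861), Ncf4 (0.9811), a subunit of the phagocyte oxidase, and Myo1f (0.9722). Cebpe was most like Hdc (0.9641), the histidine decarboxylase, Rtn3 (0.9613) and Flot2 (0.9609), and Gfi1 like Lbp (0.9721), Xpc (0.9546) and Tcn2 (0.9537). Irf8 was most like Nrp1 (0.9592), Ifi209 (0.9554) and Colgalt1 (0.9532), and Klf4 like Cd300lg (0.9648), Ppfia4 (0.9628) and Wdr26 (0.9579). Cebpa was most like Gpr160 (0.9596), Dok3 (0.959) and Fam107b (0.9367), Cebpb like Abcd2 (0.9424), Dok3 (0.933) and Gstm1 (0.9232), and Cebpd like B4galnt1 (0.9733), Rnpep (0.9613) and Atp6v0b (0.9406). The points share libraries, and Irf4 was too low to be compared.

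In HSC-like cells the erythroid factor Gata1 was detected in 1.79% of cells with a UMI of Spi1 and 2.50% of cells without, higher with Spi1 in 3 of 8 mice.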
